A study of Mus musculus with 5 samples.

Results

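The mitochondrial ribosomal protein genes are the 77 genes of the deposited table whose symbols begin with Mrpl or Mrps followed by a number, out of 24062 genes. By the letter of the symbol, 48 belong to the large subunit (Mrpl) and 29 to the small subunit (Mrps). They were chosen by symbol alone, and no symbol with a pseudogene suffix had to be dropped. All 77 had reads in every library and all passed the filter on low counts. The lowest member count was 250 reads and the highest 26643, so replicate spread and not counting error limits the comparisons.

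The study sequenced RNA of mouse mitral valve leaflets to see how loss of Ift88, a gene of the transport machinery that builds cilia, alters the transcriptome. By their titles 2 libraries are wild type (WT) and 3 are knockout (KO). The genotype entries give the driver NfatC1Cre(+) to all 5 libraries, and name Ift88f/f for the WT libraries and Ift88+/+ for the KO libraries, the reverse of what the titles say. Groups here follow the titles. NfatC1Cre is a driver of the endocardial lineage, so cells from other lineages may keep Ift88. The labels used here give no age and do not say whether each library came from its own animal. The p-values therefore reflect the spread among these libraries alone, and part of it may be technical.

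Mitochondria carry their own ribosome, which translates the few proteins encoded by mitochondrial DNA, all of them subunits of the respiratory chain or of ATP synthase. Its RNA comes from mitochondrial DNA. Its proteins are encoded in the nucleus, made in the cytosol and imported. The small subunit decodes the messenger RNA and the large subunit forms peptide bonds at the inner membrane. Heart muscle cells are densely packed with mitochondria, while valve interstitial and endothelial cells hold fewer. In bulk tissue, fewer cells of a type and less RNA per cell cannot be told apart.

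Library totals lay between 23361414 and 53789026 reads. Levels are CPM, each gene's count relative to the library total scaled by TMM, and fold changes are KO against WT. Ift88 was listed at 7.54 and 19.8 CPM in WT replicates 1 and 2 and at 3.0, 3.92 and 0.409 CPM in KO replicates 1, 2 and 3, lower in every KO library than in either WT library (log2 fold change -2.48, SE 1.13, adjusted p = 0.81, edgeR quasi-likelihood test). Markers of valve interstitial cells and of endocardium were present in all libraries. Their summed levels were 2812 and 225 CPM in WT replicate 1 and 7790 and 1654 in WT replicate 2, against ranges of 8038 to 11773 and 1183 to 1863 in KO. The 12 cardiomyocyte markers summed to 69400 CPM in WT replicate 1 and 106 CPM in WT replicate 2, with 27586 to 38222 in KO, and none of the 12 was at 0 in any library. WT replicate 2 was the lowest library for each of the 12. WT replicate 1 was highest in the sum, to which Actc1 gave 31260 CPM, but not for each marker. Myh6 stood at 583 CPM in WT replicate 1 and 1311 to 2461 CPM in KO, and Ttn at 285 CPM against 325 to 412 CPM.

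Members share features in the genome that their symbols do not fix. In the GENCODE M21 annotation of GRCm38 they lie on 17 chromosomes, with at most 10 on any 1. The median longest transcript was 1849 nt, against 3002.5 nt for the protein-coding genes of the table. The large-subunit genes had a median of 1732.5 nt and the small-subunit genes 1962 nt. For 18 members (23.4%) another protein-coding gene starts at most 1000 bases upstream and runs the opposite way. That arrangement was found for 6.79% of the 21951 protein-coding genes of the annotation, whether expressed here or not. The share among the genes tested was not computed. Pairs that overlap at their 5′ ends were not counted. For Mrps12 the neighbour is Sars2, 172 bases away, which encodes the mitochondrial seryl-tRNA synthetase. The members Mrpl46 and Mrps11 overlap at their 5′ ends on opposite strands of chromosome 7. By each member's largest overlap, exons of 26 members overlap a gene on the opposite strand and those of 4 a gene on the same strand. Smaller overlaps, and genes other than protein-coding and long noncoding ones, were not counted. Reads in an overlap cannot be assigned with certainty, since the kit does not mark the strand.

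RefSeq promoters (GRCm38.p6, 250 bases before to 50 after a start) were found for 68 of the 77 genes, 74 promoters in all. They were searched on both strands for short core motifs of 3 factors known as regulators of nuclear genes for mitochondria. These were CGCATGCG for NRF1, CCGGAAG for ETS factors such as GABPA, and AAGATGGC for YY1. None of these motifs contains another. The ETS motif was in 33.8% of the members' promoters, against 15.8% of the 13578 promoters of genes tested. YY1 was in 16.2% against 3.98%, and NRF1 in 9.46% against 3.54%. At least 1 of the 3 was in 50% of the members' promoters and in 21.5% of those of genes tested. In the large subunit the shares were 29.8% for ETS, 12.8% for YY1 and 12.8% for NRF1, and in the small subunit 40.7%, 22.2% and 3.70%. In a window cut to 100 bases before the start the shares for all members were 29.7% for ETS, 12.2% for YY1 and 5.41% for NRF1, against 12.02%, 2.87% and 2.59% of the promoters of genes tested. A match is a run of letters and was not tested as a binding site.

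The promoters of 5 members are shown because they hold the motifs close before the start. They cover the 120 bases up to the base before the RefSeq start, 5′ to 3′ on the gene's strand, with the motifs in capitals, and were taken from those with few bases in an annotated exon. Mrpl22 (chr11:58171544-58171663, plus strand) holds ETS and NRF1 motifs, Mrpl43 (chr19:45006443-45006562, minus) holds 2 ETS motifs, and Mrpl17 (chr7:105811088-105811207, minus) holds an NRF1 motif. Mrps18a (chr17:46110884-46111003, plus) and Mrps22 (chr9:98601680-98601799, minus) hold an ETS motif each.
Mrpl22: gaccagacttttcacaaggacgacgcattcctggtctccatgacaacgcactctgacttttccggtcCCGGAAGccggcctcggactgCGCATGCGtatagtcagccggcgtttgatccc
Mrpl43: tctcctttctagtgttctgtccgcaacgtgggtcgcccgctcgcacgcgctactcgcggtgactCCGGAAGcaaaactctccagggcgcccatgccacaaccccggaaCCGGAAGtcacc
Mrpl17: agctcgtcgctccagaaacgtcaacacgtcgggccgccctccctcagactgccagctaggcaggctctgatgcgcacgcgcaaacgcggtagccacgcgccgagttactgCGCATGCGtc
Mrps18a: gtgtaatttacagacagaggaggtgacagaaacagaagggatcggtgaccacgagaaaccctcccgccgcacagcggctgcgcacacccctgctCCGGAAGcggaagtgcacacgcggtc
Mrps22: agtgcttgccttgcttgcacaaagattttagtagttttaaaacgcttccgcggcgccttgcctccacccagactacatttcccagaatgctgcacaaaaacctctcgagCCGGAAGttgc

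Relative to library size, the members were highest in WT replicate 1. Their counts took 0.995% of all reads in WT replicate 1 and 0.591% in WT replicate 2. In KO replicates 1, 2 and 3 the shares were 0.642%, 0.499% and 0.510%. As summed CPM this was 11890 and 5507 in WT (8698 ± 4514, SD, n = 2) and 6360, 4744 and 4877 in KO (5327 ± 897, SD, n = 3). The groups overlap, since KO replicate 1 lies above WT replicate 2. The highest library was WT replicate 1 for 75 of the 77 genes. The exceptions were Mrpl17 and Mrpl49, both highest in WT replicate 2.

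Both subunits were highest in WT replicate 1. The summed large-subunit level was 7953 and 3799 CPM in WT and 4278, 3182 and 3314 CPM in KO. For the small subunit it was 3937 and 1708 CPM in WT and 2082, 1563 and 1562 CPM in KO. Their ratio, large to small, was 2.02 and 2.22 in WT (2.12 ± 0.145, SD, n = 2) and 2.05, 2.04 and 2.12 in KO (2.07 ± 0.0452, SD, n = 3). KO lies within the range of the WT libraries on this measure. With each gene's level divided by the length of its longest transcript the ratio was 1.81 and 2.15 in WT and 1.88, 1.83 and 2.16 in KO, where KO replicate 3 lies just above WT replicate 2. On the log2(CPM + 1) scale the mean large-subunit gene stood above the mean small-subunit gene by 0.15 and 0.44 in WT and by 0.26, 0.24 and 0.25 in KO. WT replicate 2 had the widest gap between the subunits and WT replicate 1 the narrowest.

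KO against WT, all 77 members had a log2 fold change below 0, where 50.6% of the 14244 genes tested did. The fold changes ran from -1.28 to -0.15, with a median of -0.67, and the median over all genes tested was -0.013. Large and small subunit had nearly the same medians, -0.67 and -0.65. With Mrps18a and Mrps30 counted in the large subunit, where the structure of the mitoribosome places them, and Mrps36 left out, the medians were -0.67 and -0.63. No member was called at an adjusted p under 0.05 by the edgeR quasi-likelihood test, and 0% of all genes were. The smallest adjusted p of a member was 0.81. DESeq2, limma-voom and the edgeR likelihood-ratio test called no member either, while calling 218, 0 and 50 genes in all. At an unadjusted p under 0.05 the edgeR quasi-likelihood test had 2 members, both lower in KO, against 1.27% of all genes that were lower at that p, and DESeq2 had 7 members, all lower in KO, against 2.44% of all genes. The direction was the same for all 77 in DESeq2, while 3 members were positive in limma-voom.

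Every KO library lay below both WT libraries for 19 members (24.7%), 13 large and 6 small, against 11.1% of all genes tested. For no member did every KO library lie above both. The comparison rests on WT replicate 1. Against it alone, every KO library was lower for 76 of the 77 members, where 30.1% of genes were. Against WT replicate 2 alone every KO library was lower for 20 members, below the share of 30% among all genes, and higher for 13 members, below the share of 27.5%. Without WT replicate 1 the median fold change of the large subunit was -0.21 and that of the small subunit 0.093, where all genes tested had a median of 0.15. Of the 48 large-subunit genes 16 were then positive, and of the 29 small-subunit genes 15. Without WT replicate 2 the medians were -1.07 and -1.12, where all genes had 0.25. Both fits hold 1 WT library, so they contain no spread between WT libraries. The median of the members thus differs with the WT library taken, -0.053 against replicate 2 and -1.10 against replicate 1.

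**Figure D1:**
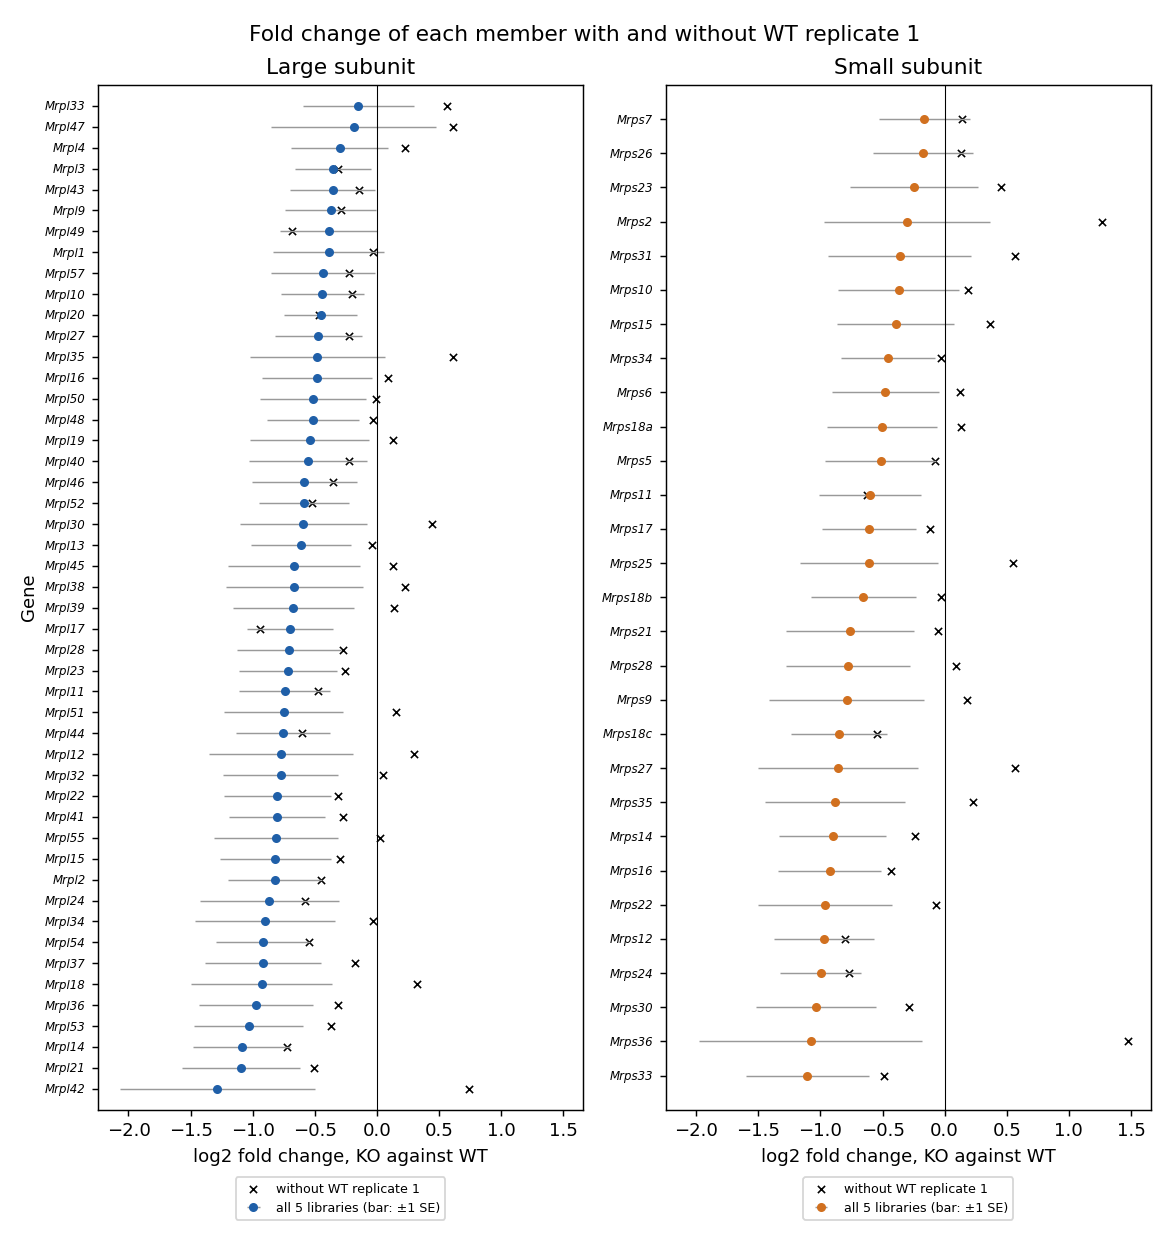
log2 fold change, KO against WT, for each member, ordered within its subunit. Coloured points are the fit to all 5 libraries with bars of 1 SE, and crosses the fit without WT replicate 1; all 77 coloured points lie below 0, while 31 crosses lie above it.

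Large-subunit members with the smallest p were Mrpl14, Mrpl54, Mrpl53, Mrpl21, Mrpl2 and Mrpl36. Mrpl14, at chromosome 17, 45686322 to 45698495, encodes a core protein of the large subunit to which the assembly factor Malsu1 binds. The WT libraries held 111 and 68.1 CPM and the KO libraries 52.3, 36.1 and 37.9 CPM, with no overlap. Its log2 fold change was -1.09 (SE 0.39, unadjusted p = 0.0305, adjusted p = 0.81, edgeR quasi-likelihood test) and -0.72 without WT replicate 1. Malsu1 itself, which is not a member, had 62.4 and 56.5 CPM in WT and 32.7, 34.1 and 31.4 CPM in KO (log2 fold change -0.86, SE 0.34, adjusted p = 0.81, edgeR). For both genes every KO library lay under both WT libraries.

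Mrpl54 and Mrpl53 encode proteins that bacterial ribosomes lack. Mrpl54 was at 170 and 104 CPM in WT, with 91.3, 59.1 and 67.5 CPM in KO, without overlap. Its log2 fold change was -0.91 (SE 0.38). Mrpl53 was at 189 and 84.9 CPM in WT, with 84.3, 57.2 and 59.0 CPM in KO, where KO replicate 1 nearly touched WT replicate 2. A gene on the same strand covers 695 exon bases of Mrpl53, so its count is uncertain. Mrpl21 had levels of 75.3 and 36.6 CPM in WT and 32.4, 26.8 and 19.4 CPM in KO. Mrpl2 encodes a protein near the centre where peptide bonds form. It had 182 and 111 CPM in WT and 74.7, 68.4 and 105 CPM in KO, and the gap between WT replicate 2 and KO replicate 3 was small. Mrpl36 had 210 and 94.8 CPM in WT and 97.8, 55.2 and 80.4 CPM in KO, and its groups overlapped.

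Small-subunit members with the smallest p were Mrps24, Mrps12, Mrps33, Mrps16, Mrps18c and Mrps30. Mrps24, at chromosome 11, 5703983 to 5715680, had the smallest p of all members. It was at 165 and 119 CPM in WT, with 81.4, 65.0 and 66.7 CPM in KO, with no overlap. The log2 fold change was -0.997 (SE 0.33, unadjusted p = 0.0213, adjusted p = 0.81, edgeR quasi-likelihood test) and -0.77 without WT replicate 1. It shares 226 exon bases with Urgcp on the same strand, so reads there may belong to either gene. Mrps12 encodes a protein of the decoding centre. Its levels were 71.2 and 55.0 CPM in WT and 36.6, 37.3 and 22.7 CPM in KO, and its log2 fold change was -0.97 (SE 0.40), or -0.80 without WT replicate 1. Against WT replicate 1 alone the log2 fold changes of Mrpl14, Mrps24 and Mrps12 were -1.40, -1.21 and -1.14. In all 3 genes every KO library lay below both WT libraries. Negative values against either WT library alone follow from that and are no further check.

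For Mrps33 the levels were 280 and 132 CPM in WT and 130, 98.2 and 58.7 CPM in KO, where KO replicate 1 nearly reached WT replicate 2. Mrps16 followed with 141 and 75.1 CPM in WT and 73.5, 47.9 and 48.7 CPM in KO. The log2 fold change of Mrps33 was -1.10 (SE 0.49) and that of Mrps16 -0.93 (SE 0.42). Without WT replicate 1 each was smaller by more than 1 SE, at -0.49 and -0.43. Mrps30, a large-subunit protein in the assembled ribosome despite its symbol, was at 168 and 68.7 CPM in WT, with 41.4, 72.2 and 59.7 CPM in KO. KO replicate 2 lay above WT replicate 2, and the fold change of -1.04 (SE 0.48) was -0.29 without WT replicate 1.

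The 3 Mrps18 genes encode paralogs of 1 bacterial small-subunit protein, and the product of Mrps18a sits in the large subunit. Mrps18a had 133 and 61.6 CPM in WT and 87.2, 63.0 and 55.9 CPM in KO, with overlap. Mrps18b had 102 and 47.7 CPM in WT and 49.9, 47.8 and 45.2 CPM in KO, and those 3 values lie about that of WT replicate 2. Mrps18c had 160 and 105 CPM in WT and 91.5, 76.5 and 52.7 CPM in KO, with no overlap. In that order the fold changes on the log2 scale were -0.50, -0.65 and -0.85 (SE 0.44, 0.42 and 0.39), and without WT replicate 1 they were 0.13, -0.033 and -0.54. The differences between these paralogs were not tested.

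Libraries also differed in how levels went with transcript length. In this full-length cDNA protocol the level of a gene relative to its mean over libraries fell by 0.252 and 0.145 log2 units per doubling of transcript length in WT replicates 1 and 2, and rose by 0.058, 0.211 and 0.128 units in KO replicates 1, 2 and 3. Both WT libraries were thus relatively rich in short transcripts, and the members are shorter than most genes. With each library's length trend removed the medians were -0.43 for the large and -0.49 for the small subunit, where all genes had -0.11, and 5 members had a positive fold change. Of the 19 members below both WT libraries 11 remained so. Mrpl14 was then at -0.51, Mrps24 at -0.54 and Mrps12 at -0.50. Lengths were those of the longest transcript, which for some members is far longer than the principal transcript in the APPRIS tags. For Mrpl13, with 6008 against 1223 nt, the log2 fold change went from -0.61 to -1.31. For Mrpl42, with 3277 against 666 nt, it went from -1.28 to -1.36.

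Levels of different genes were compared per kilobase of the longest transcript, as means over the 5 libraries. Each subunit is given by its 3 highest and 2 lowest genes. Mrpl28 was highest at 182 CPM per kb (SD over libraries 74.9, n = 5), followed by Mrps36 at 178 (SD 174) and Mrpl54 at 163 (SD 72.6). Mrps21 stood at 138 (SD 72.0), Mrpl53 at 134 (SD 76.2) and Mrps33, in place 8, at 126 (SD 75.8). The means of neighbours named here differ by less than these SDs, which include shifts between libraries common to many members. Differences between neighbours were not tested. The lowest were Mrpl47 at 6.55 CPM per kb (SD 2.99), Mrpl19 at 8.20 (SD 3.41), Mrps5 at 8.23 (SD 2.83) and Mrps26 at 9.01 (SD 1.84). Each library of these 4 genes lay between 3.04 and 14.0 CPM per kb, below every library of Mrpl28 (99.6 to 303) and of Mrps36 (43.4 to 477). Genes on the opposite strand overlap 616 exon bases of Mrpl47 and 1962 of Mrpl19, so the counts of both are uncertain. The place of Mrps36 rests on WT replicate 1, where it had 477 CPM per kb, while KO had 173, 112 and 84.3 and WT replicate 2 had 43.4. The order depends on the transcript taken. Per kilobase of the principal transcript in the APPRIS tags, an alternative chosen after seeing the data, Mrpl42, in place 13 by the longest transcript, came first at 559 CPM per kb, Mrpl33 moved from place 39 to 2, and Mrpl28 took place 3. The 4 lowest kept their places.

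Members differed in how far apart the WT libraries were. The ratio of WT replicate 1 to WT replicate 2 had a median of 2.03 over the members, 1.92 in the large and 2.16 in the small subunit, and 0.924 over all genes tested. It was above 1 for 75 members and above 2 for 39. Of the 14244 genes tested, 6189 and 2863 were, with genes that had no read in WT replicate 2 not counted. Mrps36 was at the top with 335 against 30.4 CPM, a ratio of 11.0. It encodes a subunit that is now assigned to the oxoglutarate dehydrogenase complex of the citric acid cycle and not to the ribosome. In KO it had 122, 78.8 and 59.1 CPM, between the WT libraries, and its log2 fold change was -1.08 (SE 0.90) with all libraries and 1.48 without WT replicate 1. Mrpl42, with a ratio of 7.32, had 1014 and 139 CPM in WT and 317, 225 and 168 CPM in KO, also between them. Mrps2, with a ratio of 5.08, had 132 and 26.1 CPM in WT and 66.5, 74.5 and 51.8 CPM in KO. In these 3 genes WT replicate 1 was highest and WT replicate 2 lowest, as for the summed cardiomyocyte markers. Most members did not have that order. Of all 77, WT replicate 2 was lowest for 14, and KO replicates 1, 2 and 3 were lowest for 1, 33 and 29. Mrpl42 and Mrps2 were picked after their values were seen, as were Mrpl49, Mrpl17, Mrps11, Mrpl46, Mrpl33 and Mrpl13. The part of heart muscle RNA in this was not tested.

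**Figure D2:**
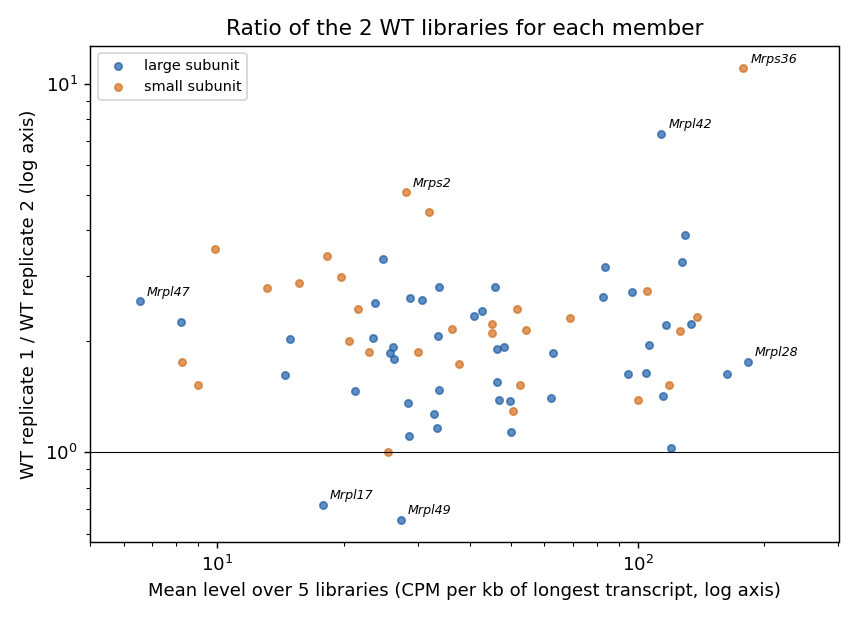
Ratio of WT replicate 1 to WT replicate 2 for each member (log axis) against its mean level over 5 libraries in CPM per kb of longest transcript (log axis). Points are genes, and the line marks a ratio of 1; Mrps36 lies highest at 11.0 and Mrpl49 lowest at 0.655.

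At the other end, Mrpl49 had 44.4 and 67.8 CPM in WT and 51.0, 42.6 and 35.2 CPM in KO. Mrpl17 had 142 and 197 CPM in WT and 121, 79.9 and 112 CPM in KO, and its log2 fold change of -0.70 (SE 0.35) was -0.94 without WT replicate 1. Mrps11 was the member with the closest WT libraries, at 33.8 and 33.7 CPM, and had 26.7, 20.7 and 19.3 CPM in KO. Its antisense neighbour Mrpl46 had 77.3 and 55.7 CPM in WT and 60.4, 41.3 and 31.2 CPM in KO, with overlap. Mrpl12 encodes the protein of the flexible stalk that recruits translation factors, and it also binds the mitochondrial RNA polymerase. It had 342 and 104 CPM in WT and 174, 84.7 and 133 CPM in KO, and its log2 fold change of -0.77 (SE 0.58) was 0.30 without WT replicate 1. Among the lowest genes, Mrpl47 had 34.2 and 13.3 CPM in WT and 24.5, 27.9 and 10.2 CPM in KO, and its fold change of -0.19 (SE 0.67) was below its error. Mrps26, Mrpl19 and Mrps5 had log2 fold changes of -0.18, -0.54 and -0.51.

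Within KO the members were less spread than within WT. The highest KO library was a median of 1.52 times the lowest, and 1.90 times over all genes tested. KO replicate 1 was the highest of the 3 for 61 of the 77 members, and for 4853 of the 14244 genes tested. It also had the highest summed cardiomyocyte level in KO, and its length trend was the flattest. The part of either in these values was not tested.

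Other genes of mitochondrial translation did not all follow the members, and none was called by the edgeR quasi-likelihood test. Ribosomal proteins of other names (Dap3, Ptcd3, Chchd1, Aurkaip1, Gadd45gip1 and Ict1) were negative in 6 of 6, with a median of -0.44, and in 4 of 6 without WT replicate 1 (median -0.21). Aurkaip1 had 126 and 100.2 CPM in WT and 73.6, 62.6 and 62.3 CPM in KO, the 1 gene of these without overlap, and Chchd1 had a log2 fold change of -0.88 (SE 0.45), or -0.24 without WT replicate 1. Of 23 genes of mitoribosome assembly and RNA modification 22 were negative (median -0.51), and 15 without WT replicate 1 (median -0.13). Beside Malsu1 the smallest p was that of Mterfd1, which acts in assembly of the large subunit, with 59.4 and 42.5 CPM in WT and 29.8, 18.6 and 20.9 CPM in KO. Of 12 translation factors 11 were negative (median -0.67), and 6 without WT replicate 1 (median 0.037). Mtif3, an initiation factor, had 101 and 81.5 CPM in WT and 53.6, 43.3 and 18.7 CPM in KO (log2 fold change -1.25, SE 0.51), and Taco1, the translational activator of a cytochrome oxidase subunit, had -1.36 (SE 0.79), or -0.16 without WT replicate 1.

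Enzymes that charge mitochondrial tRNAs were split, 13 negative and 8 positive of 21, with a median of -0.030, and 8 negative and 13 positive without WT replicate 1 (median 0.21). Yars2, the tyrosyl-tRNA synthetase, had 66.2 and 23.2 CPM in WT and 11.8, 17.8 and 14.9 CPM in KO (log2 fold change -1.59, SE 0.56, or -0.68 without WT replicate 1). Tars2, the threonyl-tRNA synthetase, had -0.90 (SE 0.39), or -0.50 without that library. Of 12 genes of mitochondrial transcription and RNA stability 9 were negative (median -0.37), with Polg2 at -1.32 (SE 0.78) and Ssbp1 at -0.71 (SE 0.40). Without WT replicate 1 these were -0.95 and -0.32. Lrpprc, Polg and Tfb2m were the positive genes of the list with and without that library. Regulators of mitochondrial biogenesis had a median of 0.067 over 12 genes, 5 negative and 7 positive. Among them Gabpb2 and Yy1 had 0.93 (SE 0.68) and 0.94 (SE 0.65). Ppargc1a, picked after its values were seen, had 64.2 and 1.14 CPM in WT and 34.3, 69.4 and 86.4 CPM in KO. Its log2 fold change was 0.96 (SE 1.35), or 5.75 without WT replicate 1. Esrrg, picked likewise, had 49.4 and 0.069 CPM in WT and went from 0.073 to 8.46. Without that library Gabpa, Gabpb1, Myc, Nrf1 and Pprc1 were negative and the other regulators positive. Every KO library lay below both WT libraries for 1 of the 6 otherwise named proteins, 5 of 23 assembly genes, 3 of 12 translation factors, 6 of 21 tRNA-charging enzymes, 4 of 12 genes of transcription and RNA stability and 1 of 12 regulators, where 11.1% of all genes did. No transcript of the mitochondrial genome was among the rows, so the products of this ribosome's own messages were not analysed here.

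With all libraries, genes of the respiratory chain and the cytosolic ribosome were mostly negative, as the members were. The sets differed in WT replicate 2. Nuclear respiratory chain and ATP synthase genes summed to 120390 and 21333 CPM in WT and to 53766, 31639 and 37448 CPM in KO, so WT replicate 2 was the lowest library. All 81 tested had a negative fold change (median -0.83), and for none did every KO library lie below both WT libraries. Without WT replicate 1, 76 of 82 were positive (median 0.71), against 31 of 77 members. For Ndufb4 and Ndufa7, both of complex I, the fit to all libraries gave log2 fold changes of -1.29 and -0.95, and without WT replicate 1 they were 0.065 and -0.070. Cytosolic ribosomal proteins summed to 29995 and 44968 CPM in WT and to 28010, 23454 and 20762 CPM in KO, with WT replicate 2 highest. Of 81 tested, 44 (54.3%) lay below both WT libraries in every KO library, against 24.7% of members and 11.1% of all genes tested. With all libraries the fold changes of those tested were negative, except for Rpl30, Rpl39l, Rpl3l and Rps27. Without WT replicate 1 the median of the cytosolic set was -0.88. Rps14 had 1028 and 1769 CPM in WT and 775, 601 and 587 CPM in KO, and Rps9 a log2 fold change of -0.995 (SE 0.40). In WT replicate 2 the members' summed level lay within the KO range, while the respiratory chain lay below its KO range and the cytosolic ribosome above. The difference between the sets was not tested.

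**Figure D3:**
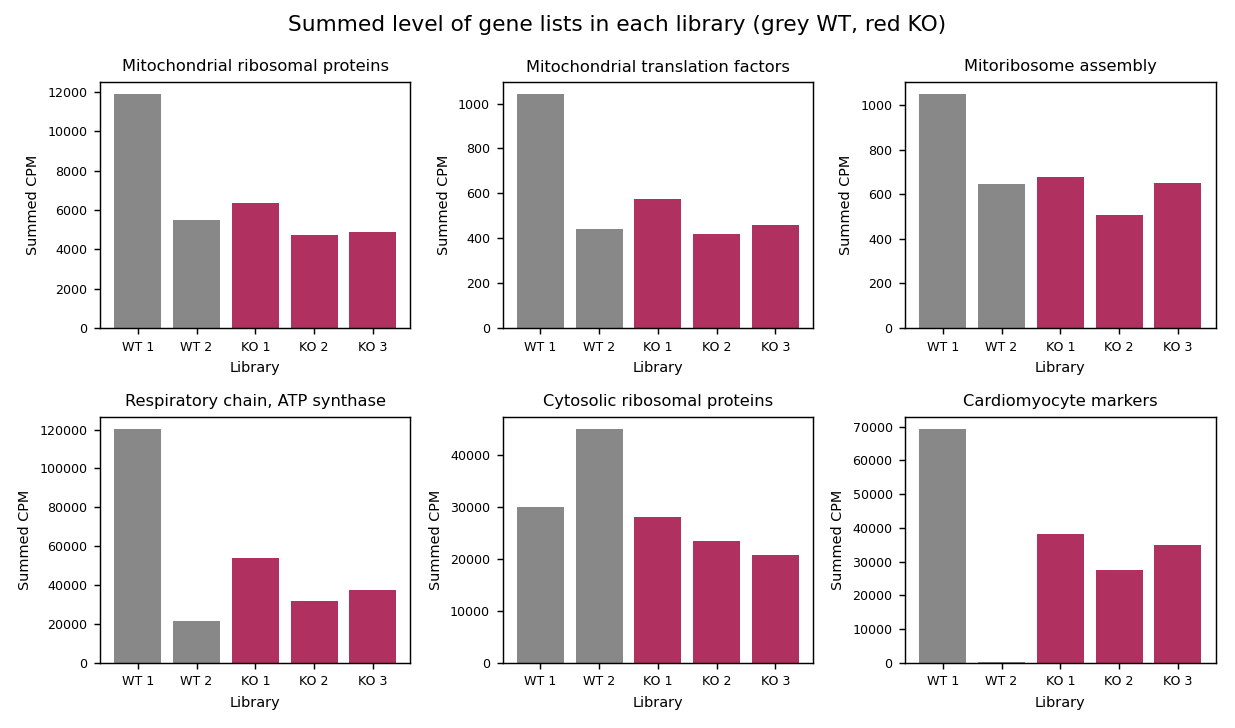
Summed CPM of 6 gene lists in each library, with bars from 0 (grey WT, red KO) and no error bars, since each bar is 1 library. WT replicate 1 is highest in all panels but that of cytosolic ribosomal proteins, and WT replicate 2 is at 106 CPM for cardiomyocyte markers.

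Markers of other cell types were summed in the same way. Those highest in WT replicate 1 and lowest in WT replicate 2 were adipocyte markers, at 556 and 36.0 CPM in WT and 183 to 210 CPM in KO, nearly all of it Fabp4, with 4 or 5 of the 6 markers at 0 in each library. Erythroid markers summed to 92.7 and 2.60 CPM in WT and 0 to 34.7 CPM in KO, with at least 5 of 6 markers at 0 in each library. Smooth muscle markers were at 1447 and 649 CPM in WT and 702 to 1522 CPM in KO, and macrophage and leukocyte markers at 71.8 and 201 CPM against 111 to 222 CPM. Mast cell markers were at 19.8 and 148 CPM in WT and 62.8 to 88.5 CPM in KO, melanocyte markers at 88.1 and 69.6 against 84.9 to 201, and Schwann cell markers at 3.3 and 11.5 against 5.0 to 18.7. Their part in the members' values was not tested.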

How the data were processed

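Total RNA was extracted on columns, treated with DNase and made into full-length cDNA libraries with a low-input kit, per the labels' protocols. Counts were deposited by the authors as whole reads per gene and library. Per the submitters' processing notes, the tools included HTSeq, DESeq2, cutadapt 1.11 and FastQC 0.11.5, with GRCm38 and mm10 listed as builds. Aligner and gene annotation: "not given in the sources used here". Statistics deposited by the authors were not used.

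Counts were fitted with edgeR 4.0.16 (R 4.3.3) over the 14244 genes that passed filterByExpr, of 17148 with a read, scaled by TMM (factors 0.837 to 1.07), with a two-sided robust quasi-likelihood F test and Benjamini-Hochberg adjustment over all genes. Each SE is the absolute log2 fold change divided by the square root of the F statistic, not a separate estimate. The script was tested on simulated data. Alternatives were DESeq2 1.42.0, limma 3.58.1, other filters and scalings, a length correction (lowess on the longest transcript), the libraries sharing a title code and leaving out each library. The rule for named genes took the 6 smallest p, the 3 highest and 2 lowest levels per kb of each subunit, 6 genes for their roles and the 2 smallest p of each list. Members and lists were chosen with earlier results of these data known. Replicates are numbered in order of deposit.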

Additional observations from a re-analysis of the deposited data

How the results depend on the processing

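The members' fold changes depend on WT replicate 1. Leaving out each library in turn, the median over all members (-0.67) ranged from -1.10 to -0.053, that of the large subunit from -1.07 to -0.21 and that of the small subunit from -1.12 to 0.093, each highest without WT replicate 1. The difference of the subunit medians, large minus small (-0.015), ranged from -0.31 to 0.084. It was 0.052 with the length trend removed and 0.022 among libraries whose titles share a code. Members with every KO library below WT (19) ranged from 20 to 76 with a library left out, were 76 under the shared code, 25 with DESeq2 size factors and 15 with the length trend removed. They were 46 without KO replicate 1 and 76 without WT replicate 2, and fewer libraries pass such a criterion more easily by construction. Members above (0) ranged from 0 to 13. Genes called (0 by edgeR's quasi-likelihood test, with 832 at p under 0.05 before adjustment) were 218 with DESeq2, 50 with the likelihood-ratio test and 0 to 245 with a library left out, 245 being without WT replicate 1. Over the left-out libraries Mrpl12 ranged from -1.39 to 0.30, Mrpl19 from -1.01 to 0.13, Mrpl47 from -0.71 to 0.62, Mrps18a from -0.95 to 0.13, Mrps26 from -0.45 to 0.13 and Mrps36 from -1.95 to 1.48. All 6 were positive without WT replicate 1, and Mrpl47 also without KO replicate 3 (0.14) and with limma-voom (0.082). The cause was not tested. The code is shared by WT replicate 1 and KO replicates 1 and 2, and what it stands for is not given. No paired analysis was possible, since the titles mark no WT and KO pairs and 1 WT library alone carries the shared code.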
